A study of Rattus norvegicus with 8 samples.

Results

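A set of 33 genes of DNA damage signalling and repair was followed in BRL-3A cells, an established line from rat liver. The set was a list of gene symbols, and every array probe that carried one of them as its gene name was taken. Probes were found for 29 of the 33 genes (34 probes among 41012 on the array), and 28 of those genes were bright enough to be tested, beside 10812 tested genes in all. The array had no probe named Atr, Fancg, Msh6 or Blm, so these genes were not analysed here. Xrcc2, a gene of homologous recombination, had 1 probe, which was well above background on 0 of 8 arrays and was not tested.

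DNA repair genes encode several pathways, which share part of their machinery. Checkpoint kinases sense damage and hold the cell cycle. Homologous recombination and the Fanconi pathway repair broken and crosslinked DNA with the sister chromatid as template, so they act mainly in replicating cells. End joining ligates broken ends in any phase, while base excision, nucleotide excision and mismatch repair remove damaged or wrongly paired bases from a strand. Much of the recombination and Fanconi machinery is transcribed together with the genes of DNA replication, under factors of the E2F family. The liver normally divides little, and a cultured line differs from it in this respect.

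The group labelled siRNA consisted of cells given an siRNA directed at lnc19959.2, a long noncoding RNA. The other group, labelled NC, received the transfection that the labels call NC. All cells were transfected with lipofectamine and harvested after 48 h, and each group had 4 arrays. The series concerns a liver long noncoding RNA in triglyceride metabolism, and the comparison asks which transcripts differ when it is targeted. No probe carried the name of the RNA, so its own level was not checked here. The labels do not state separate cultures for the arrays of a group, so every p-value reflects the variation among these arrays alone, possibly technical. The 4 siRNA arrays shared 1 slide and the 4 NC arrays another, with a scan each, so that an effect of slide or scan cannot be told apart from the group.

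Each value below is a level, the spot signal as a multiple of the 75th percentile of its array, which was 289 to 323 intensity units on siRNA arrays and 246 to 261 on NC arrays. Levels were compared between groups for the same probe, never between probes. Of the spots, 55.4 to 59.1% were well above background on siRNA arrays and 57.3 to 64.1% on NC arrays. Log2 signals correlated at 0.986 to 0.992 among siRNA arrays, 0.990 to 0.993 among NC arrays and 0.946 to 0.962 between the groups, across probes. As to the labelled tissue, 8 of the 19 hepatocyte markers with a probe were above background on 0 of 8 arrays, among them Alb (serum albumin) and Ttr (transthyretin), whereas Krt8 and Foxa2 were above it on all 8. In bulk RNA, fewer cells that express a gene and less RNA per cell cannot be told apart.

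Most of the listed repair genes that changed were higher in siRNA cells, by modest amounts. By limma, 17 of the 28 tested genes were higher in siRNA than in NC cells, 1 (Ercc1) was lower and 10 were not called at an adjusted p under 0.05. Many genes of the array changed: over all tested genes 36.1% were called higher and 28.9% lower, 65.1% in all. The median log2 fold change (siRNA minus NC) of the 28 genes was 0.35, against 0.04 for all tested genes, and they ranged from -0.41 to 1.03. A rise of at least 0.5 on the log2 scale was called for 10 of the 28, against 15.5% of all tested genes. Brca1 is among both the 17 and the 10, but it was tested only through the siRNA arrays, so it had to be higher. At 2-fold or more there were 2, Exo1 and Fanca, against 4.19% of all tested genes. The groups did not overlap, array for array, for 18 of the 28, against 62.5% of all tested genes.

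**Figure D1:**
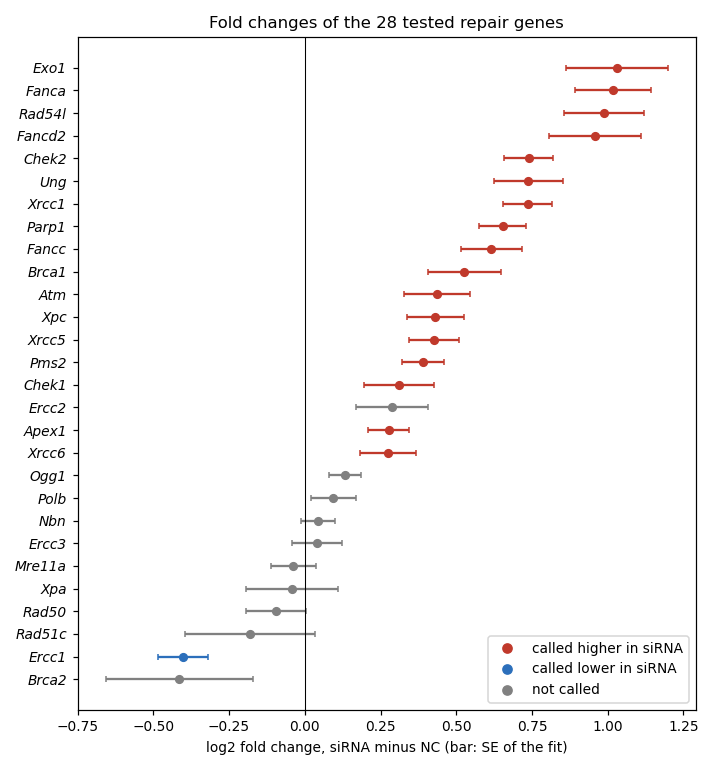
Log2 fold change, siRNA minus NC, of the 28 tested DNA repair genes, largest at the top. Points are fitted values, bars the standard error (SE) of the fit with 4 arrays per group, and colours the call at an adjusted p under 0.05. Genes run from Exo1 at 1.03 to Brca2 at -0.41, 17 are called higher and Ercc1 alone is called lower.

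The scaling of the arrays bears on all of these values. Scaling to the array median in place of the 75th percentile moved the median of all tested genes to 0.35, and scaling to the spike-in controls moved it to 0.58. The listed genes moved with it, to 0.66 and 0.89. Such scalings add 1 constant to every gene of an array, so the gap of 0.31 between the listed genes and all tested genes is the same in each by construction. Under choices that can change it, the gap was 0.28 with normexp, another background correction, and 0.15 with normexp run without spots dimmer than their local background. The gap was 0.34 with quantile normalization, 0.33 with cyclic loess, 0.35 with no filter on dim probes and 0.24 over probes bright on all arrays. Leaving out each array in turn gave 0.28 to 0.35. With median scaling 23 of the 28 were higher and 0 lower, and over all tested genes 6493 were higher and 1654 lower in place of 3906 and 3128. With spike-in scaling 25 were higher and 0 lower, against 7867 and 1075 of all tested genes. The changes that follow were measured against the array's 75th percentile.

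**Figure D2:**
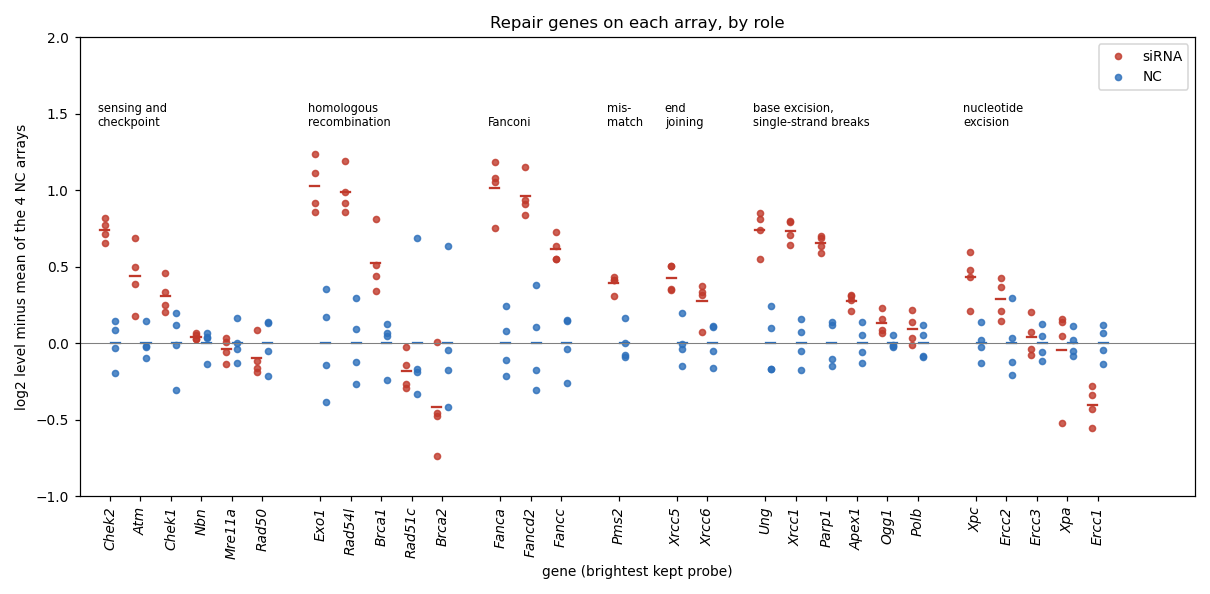
Log2 level on each array minus the mean of the 4 NC arrays, for the 28 tested repair genes grouped by pathway. Red points to the left are siRNA arrays, blue points to the right NC arrays, and short lines the group means. Exo1, Rad54l, Fanca and Fancd2 show the widest separation between groups, Ercc1 lies below its NC arrays, and Nbn, Mre11a and Ercc3 lie among theirs.

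Among the damage sensors and checkpoint kinases, Chek2, Atm and, by a narrow margin, Chek1 were called higher, and the genes of the break-sensing complex did not pass the test. Of the 6 genes tested, 3 were called higher and 0 lower, against 36.1% and 28.9% of all tested genes. Chek2, the effector kinase activated by ATM at DNA breaks (probe at rn4 chr12:45957732-45957791), had levels of 0.562, 0.629, 0.612 and 0.586 on siRNA arrays, against 0.379, 0.350, 0.312 and 0.395 on NC arrays. All 4 siRNA arrays lay above all 4 NC arrays. The log2 fold change was 0.74 ± 0.08 (SE, n = 4 per group, limma adjusted p = 0.000162), or 1.67-fold.

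Atm encodes the kinase that signals DNA breaks. Its 2 probes on the reverse strand of rn4 chromosome 8 are shown because they gave rises of different size. The first, at chr8:56985441-56991277, has 60 letters whose positions span 5837 bases, and the second, at chr8:56900717-56900776, is contiguous.
Atm first probe: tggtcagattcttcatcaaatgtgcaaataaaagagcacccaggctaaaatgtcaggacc
Atm second probe: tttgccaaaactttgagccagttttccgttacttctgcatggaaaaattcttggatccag
At the first, brighter probe the levels were 0.141, 0.175, 0.162 and 0.200 in siRNA cells, against 0.122, 0.123, 0.116 and 0.138 in NC cells. The groups did not overlap, though the lowest siRNA array and the highest NC array nearly met, and the log2 fold change was 0.44 ± 0.11 (SE, adjusted p = 0.00966). With normexp background correction the sign turned, to -0.19 (adjusted p = 0.609). The second probe was above background on 3 of 4 siRNA arrays and on 0 of 4 NC arrays. Its levels were 0.0668, 0.0897, 0.0743 and 0.0882 on siRNA arrays, against 0.0354, 0.0323, 0.0391 and 0.0369 on NC arrays, which makes it at least 1.66-fold higher in siRNA cells. This probe was tested only through the siRNA arrays, so it had to be higher there, and it adds no separate support. That bound sets the mean of the bright group against the lowest signal that counted as above background on each NC array, or the probe's own signal where higher.

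Chek1, the effector kinase of stalled replication forks (chr8:37954886-37954946), had levels of 1.34, 1.42, 1.30 and 1.55 on siRNA arrays, against 1.29, 1.12, 0.911 and 1.22 on NC arrays. The lowest siRNA array and the highest NC array nearly met. Its log2 fold change of 0.31 ± 0.12 (SE) was called with an adjusted p of 0.0463, but the call was lost on leaving out any 1 siRNA array, NC 2 or NC 3, with adjusted p from 0.0542 to 0.104. It was also lost with quantile normalization, cyclic loess, the percentile over bright probes, both normexp runs and no filter on dim probes, and was held in 7 of 19 alternatives.

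The 3 tested genes of the complex that binds broken ends and activates ATM were near their NC levels. Nbn stood at 0.04 ± 0.06 (SE), Mre11a at -0.04 ± 0.07 and Rad50 at -0.09 ± 0.10 on the log2 scale, with adjusted p from 0.433 to 0.675. Their groups overlapped. Under other scalings these values changed sign, so no direction is given for them.

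Homologous recombination held the largest rise of the list. Of 5 tested genes 3 were higher, 0 lower and 2 not called, beside 36.1% higher and 28.9% lower of all tested genes. Exo1, the exonuclease that resects broken ends and also acts in mismatch repair (chr13:91641965-91642024), had levels of 4.50, 5.14, 4.32 and 5.61 on siRNA arrays, against 2.68, 2.16, 1.82 and 3.04 on NC arrays. Every siRNA array was above every NC array, with a log2 fold change of 1.03 ± 0.17 (SE, adjusted p = 0.00109), or 2.04-fold. Rad54l encodes a motor protein that remodels DNA during homologous recombination (chr5:136234072-136234131). Its levels were 2.30, 2.52, 2.40 and 2.89 in siRNA cells, against 1.36, 1.17, 1.05 and 1.56 in NC cells. The groups were well apart, and the log2 fold change was 0.99 ± 0.13 (SE, adjusted p = 0.000402).

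The probes of Brca1 and Brca2 are shown because their values rest on weak or discordant signals. Brca1 acts in end resection and checkpoint signalling, and Brca2 acts in homologous recombination. All 3 probes lie on the reverse strand of rn4, Brca1 at chr10:90519749-90520715, the first Brca2 probe at chr12:4291664-4291949 and the second at chr12:4285623-4291322.
Brca1 probe: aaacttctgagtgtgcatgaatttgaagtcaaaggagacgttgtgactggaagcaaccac
Brca2 first probe: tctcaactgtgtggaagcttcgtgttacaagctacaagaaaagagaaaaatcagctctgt
Brca2 second probe: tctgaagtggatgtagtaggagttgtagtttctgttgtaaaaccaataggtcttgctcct
Brca1 was dim, above background on all 4 siRNA arrays and on 2 of 4 NC arrays. Its levels were 0.0726, 0.0943, 0.0680 and 0.0764 in siRNA cells, against 0.0555, 0.0454, 0.0585 and 0.0562 in NC cells. The groups did not overlap, and the log2 fold change was 0.53 ± 0.12 (SE, adjusted p = 0.00609). Among the genes of the list it alone was tested at a main probe that entered through the siRNA arrays only, so it had to be higher there. In the authors' deposited table, which holds 86 probes, Brca1 had log2 values of 4.55, 4.86, 4.44 and 4.61 in siRNA cells, against 3.75, 3.24, 3.66 and 3.77 in NC cells. Fitted over the rows of the authors' deposited table with limma, the log2 fold change was 1.01 ± 0.14 (SE, adjusted p = 0.0010). These values come from the same arrays, and the p-value is adjusted over 86 probes alone, so the fit adds no separate support. With normexp in place of the scanner's background correction the sign turned, to -0.38, and with the same method run without dimmer spots (those below their local background) it was 0.07 (adjusted p = 0.205). With spike-in scaling the log2 fold change of Brca1 was 1.07. Its size therefore depended on how the background was removed and on the scaling.

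Brca2 went the other way at its brighter probe and did not pass the test. Levels there were 0.263, 0.267, 0.220 and 0.368 on siRNA arrays, against 0.324, 0.355, 0.274 and 0.567 on NC arrays, a log2 fold change of -0.41 ± 0.24 (SE, adjusted p = 0.170). The groups overlapped, with array 4 the highest of both. The second probe gave 0.26 ± 0.17 (SE, adjusted p = 0.215), and it was above background on 3 of 4 siRNA and 3 of 4 NC arrays. Rad51c, also a gene of homologous recombination, stood at -0.18 ± 0.21 (SE, adjusted p = 0.485) with 1 NC array far above the rest, and at 0.05 without it.

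The Fanconi pathway, which unhooks DNA crosslinks at replication forks, was higher in all 3 of its tested genes, against 36.1% of all tested genes. Fancd2 is the protein that is ubiquitinated to start the repair, and its probe on the forward strand, at rn4 chr4:149490916-149491599, stands here for the pathway.
Fancd2 probe: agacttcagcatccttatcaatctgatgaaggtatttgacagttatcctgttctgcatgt
It had levels of 0.444, 0.466, 0.475 and 0.552 in siRNA cells, against 0.267, 0.220, 0.200 and 0.323 in NC cells, a log2 fold change of 0.96 ± 0.15 (SE, adjusted p = 0.000964). Fanca and Fancc encode subunits of the core complex that ubiquitinates Fancd2. Fanca (chr19:53588201-53588465) had 0.639, 0.788, 0.803 and 0.861 on siRNA arrays, against 0.401, 0.352, 0.327 and 0.449 on NC arrays, and was 2.02-fold higher (1.02 ± 0.13 SE on the log2 scale, adjusted p = 0.000285). Fancc (chr17:7340852-7340911) had 0.237, 0.223, 0.253 and 0.223 on siRNA arrays, against 0.170, 0.149, 0.127 and 0.169 on NC arrays, a log2 fold change of 0.62 ± 0.10 (SE, adjusted p = 0.00118). In none of the 3 did an NC array reach the lowest siRNA array, and groups did not overlap for 62.5% of all tested genes. All 3 calls were lost with normexp background correction, where Fancc turned to -0.19, Fanca stood at 0.55 (adjusted p = 0.0943) and Fancd2 at 0.34 (adjusted p = 0.303).

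Smaller rises were found in mismatch repair and end joining. Pms2, a subunit of the mismatch endonuclease, was higher at both of its probes, by 0.39 ± 0.07 (SE, adjusted p = 0.00160) at the brighter one and by 0.53 ± 0.07 at the other. The other probe was above background on all 4 siRNA arrays and 2 of 4 NC arrays, so it was tested only through the group where it is high and adds no separate support. Xrcc5 and Xrcc6 encode the Ku subunits that cap broken ends. Xrcc5 was higher by 0.43 ± 0.08 (SE, adjusted p = 0.00276) with no overlap between groups. Xrcc6 was called at 0.27 ± 0.09 (SE, adjusted p = 0.0315), although siRNA 1 (1.39) lay below NC 1 (1.43) and NC 4 (1.42). Without siRNA 2, siRNA 3, siRNA 4, NC 2 or NC 3, each left out alone, Xrcc6 was not called (adjusted p from 0.0709 to 0.0770). The Xrcc6 call was also lost with cyclic loess, the percentile over bright probes, normexp background correction, no filter on dim probes and a replicate block. It was held in 9 of 19 alternatives.

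In base excision and strand-break repair 4 of 6 tested genes were called, all higher, beside 65.1% of all tested genes called and 36.1% called higher. Ung, the glycosylase that removes uracil from DNA (chr12:43522521-43522580), had levels of 0.702, 0.839, 0.797 and 0.864 on siRNA arrays, against 0.512, 0.425, 0.425 and 0.566 on NC arrays. Its log2 fold change was 0.74 ± 0.11 (SE, adjusted p = 0.000848). Xrcc1, the scaffold of strand-break repair (chr1:79858972-79859947), had 8.03, 8.40, 8.90 and 8.95 in siRNA cells, against 5.41, 4.96, 4.54 and 5.73 in NC cells. Both groups were tight and far apart, with a log2 fold change of 0.74 ± 0.08 (SE, adjusted p = 0.000163).

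Parp1, the enzyme that marks strand breaks with poly(ADP-ribose) (chr13:96341303-96341362), had levels of 30.1, 32.4, 31.1 and 32.1 on siRNA arrays, against 22.0, 18.6, 18.0 and 21.7 on NC arrays. It was 1.57-fold higher (0.65 ± 0.08 SE on the log2 scale, adjusted p = 0.000242), and its other probe rose by 0.55 ± 0.09 (SE, adjusted p = 0.000957). Apex1, the endonuclease that cuts at abasic sites, rose by 0.28 ± 0.07 (SE, adjusted p = 0.00825). For these 4 genes no NC array reached the lowest siRNA array, and groups did not overlap for 62.5% of all tested genes. Ogg1, the glycosylase for oxidised guanine, missed the threshold at 0.13 ± 0.05 (SE, adjusted p = 0.0573), with no overlap between groups, and was called without siRNA 3 (adjusted p = 0.0494). Polb, the gap-filling polymerase, stood at 0.09 ± 0.07 (SE, adjusted p = 0.299) at its brighter probe and at -0.22 ± 0.09 (SE, adjusted p = 0.0644) at its other one, so its probes disagree in sign.

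In nucleotide excision repair 1 of 5 tested genes was called higher, 1 lower and 3 were not called. Over all tested genes 36.1% were called higher and 28.9% lower. Xpc, which recognises distorted DNA, was higher by 0.43 ± 0.09 (SE, adjusted p = 0.00469). Ercc1, a subunit of the nuclease that cuts 5′ of the lesion (chr1:78720481-78721337), had levels of 5.11, 4.62, 4.93 and 4.23 in siRNA cells, against 6.03, 6.51, 6.75 and 5.67 in NC cells. No siRNA array reached the lowest NC array, and Ercc1 was 1.32-fold lower (-0.40 ± 0.08 SE on the log2 scale, adjusted p = 0.00338). That call rests on the scaling, since Ercc1 stood at -0.10 (adjusted p = 0.297) with median scaling and at 0.14 with spike-in scaling. Ercc2, a helicase of the TFIIH complex, was not called at 0.29 ± 0.12 (SE, adjusted p = 0.0672), and was called without NC 4 (0.39, adjusted p = 0.0111). Ercc3, the other TFIIH helicase, stood at 0.04 ± 0.08 (SE) and Xpa, the damage verifier, at -0.04 ± 0.15 (SE), both uncalled and of no settled sign across scalings.

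Repair genes outside the list were taken from 127 further symbols, of which 104 could be tested. Of these, 52 were higher, 20 lower and 32 not called, with a median log2 fold change of 0.23. Over all tested genes 36.1% were higher and 28.9% lower, with a median of 0.04. Counts by pathway were 13 higher and 4 lower of 22 for homologous recombination, 3 and 0 of 7 for the Fanconi pathway, and 4 and 1 of 6 for mismatch repair. For base excision they were 8 and 3 of 17, for nucleotide excision 8 and 3 of 17, for damage checkpoints 10 and 3 of 19, and for translesion synthesis 6 and 2 of 11. The highest included Clspn, the adaptor through which Chek1 is activated, at 1.80 ± 0.24 (SE, adjusted p = 0.000388). The Clspn probe was not well above background on all 8 arrays. Its value ran from 0.14 to 2.34 over the 17 alternatives run for it, with the call held in 16, so its size is not settled. Recql4, a helicase of replication and repair, rose by 1.17 ± 0.13 (SE), and Ube2t, which conjugates ubiquitin for the Fanconi core complex, by 1.08 ± 0.08.

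Of the end joining genes outside the list 0 of 5 were higher by limma and 4 lower, against 36.1% and 28.9% of all tested genes. With median scaling 1 was higher and 3 lower, and with spike-in scaling 1 was higher and 2 lower. Lig4, the ligase that seals the ends, had levels of 0.373, 0.394, 0.388 and 0.393 on siRNA arrays, against 0.721, 0.849, 0.855 and 0.737 on NC arrays. The log2 fold change was -1.03 ± 0.07 (SE, adjusted p = 1.74e-05), and Lig4 was called lower under all 18 alternatives run for it. Nhej1, which encodes the ligase cofactor XLF, had 0.164, 0.148, 0.174 and 0.141 in siRNA cells, against 0.260, 0.255, 0.284 and 0.270 in NC cells (-0.77 ± 0.08 SE, adjusted p = 0.000101). In both genes every siRNA array lay below every NC array, and groups did not overlap for 62.5% of all tested genes. The remaining genes of this pathway are named after their values were seen: Dclre1c, the end-trimming nuclease Artemis, at -0.75 ± 0.09 (SE), Aplf, a Ku-binding factor, at -0.50 ± 0.13, which turned to 0.04 with spike-in scaling, and Xrcc4, the partner of the ligase, at 0.12 ± 0.14 and not called. Also among the lowest were Gtf2h1, a TFIIH subunit (-0.78 ± 0.06 SE), and the translesion polymerase genes Polk and Poli. Polk and Poli were above background on 0 of 4 siRNA arrays and 3 of 4 NC arrays each, so they were tested only through the NC arrays, and they were at least 1.25-fold and 1.49-fold lower in siRNA cells.

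**Figure D3:**
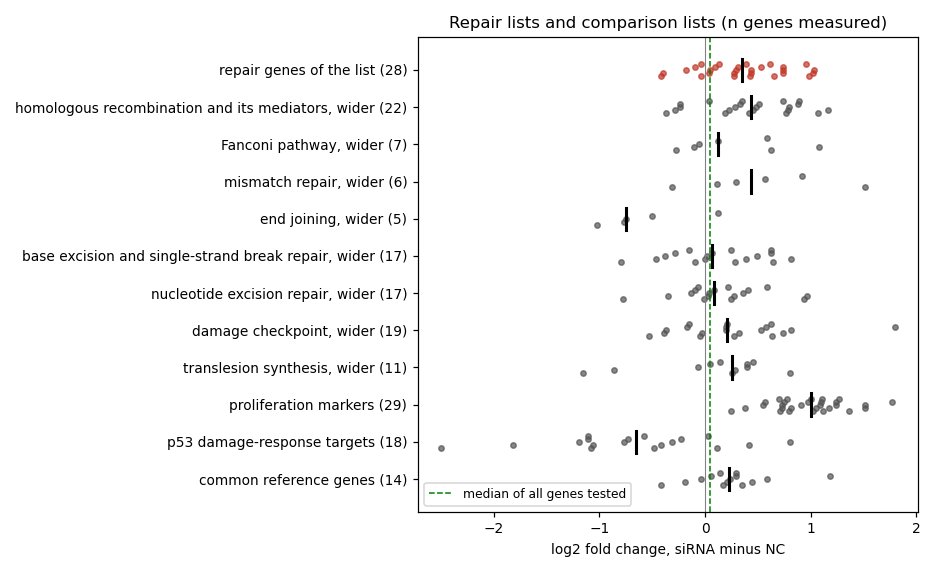
Log2 fold change, siRNA minus NC, of each measured gene in the list of 28 (red), in 8 further repair lists and in 3 comparison lists (grey), with black bars at the list medians and a dashed line at the median of all tested genes (0.04). The 28 repair genes centre on 0.35, proliferation markers on 1.001, p53 damage-response targets on -0.65 and end joining genes outside the list on -0.75.

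Markers of proliferating cells were higher in siRNA cells, as were 17 of the 28 tested repair genes. Of 29 measured markers 28 were higher, 0 were lower and 1 was not called by limma. Over all tested genes 36.1% were higher and 28.9% lower. The median log2 fold change of the markers was 1.001. Mki67 rose by 1.24 ± 0.10 (SE), Ube2c, a mitotic ubiquitin conjugase, by 1.05 ± 0.10 and the survivin gene Birc5 by 1.77 ± 0.16. Their summed level was 271 to 320 on siRNA arrays and 127 to 185 on NC arrays. The part of these markers in the repair values was not tested.

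The same arrays stood apart within groups. NC 3 was the lowest NC array for 29 of 29 proliferation markers and for 14 of the 17 repair genes called higher, against 2 of the 11 other tested repair genes and 27.4% of all tested genes. NC 4 was the highest NC array for 24 of the 29 markers and 10 of the 17, against 24.7% of all tested genes. Among siRNA arrays, siRNA 1 was the lowest for 21 of the 29 and 10 of the 17, against 24.7% of all tested genes. The arrays were not sorted by these values for any test, and 15 repair genes were higher without NC 3.

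**Figure D4:**
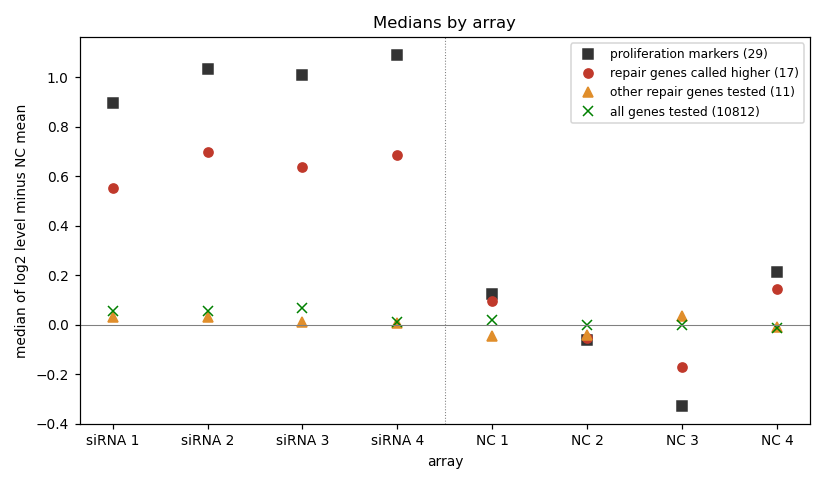
Median over each gene set of the log2 level minus its NC mean, by array, with siRNA arrays to the left. Black squares are 29 proliferation markers, red circles the 17 repair genes called higher, orange triangles the 11 others tested and green crosses all 10812 tested genes. The 17 genes lie at 0.55, 0.70, 0.64 and 0.69 on siRNA arrays and at 0.10, -0.05, -0.17 and 0.14 on NC arrays, and NC 3 is the lowest array for both the markers (-0.33) and these 17. The 17 were chosen by this comparison, so their height above the NC arrays is a description.

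Most transcripts that p53 induces after damage ran the other way. Of 18 measured targets 12 were lower, 2 higher and 4 not called, against 28.9% lower and 36.1% higher of all tested genes. Their median was -0.65, which was -0.35 when arrays were scaled to the median and -0.11 when scaled to the spike-ins. With median scaling 10 targets were lower and 3 higher, and with spike-in scaling 8 were lower and 5 higher. Sesn1 (0.80) and Bax (0.42) were the 2 called higher. Sesn2, a stress-induced regulator of growth signalling, stood at -1.11 ± 0.06 (SE), the kinase gene Plk2 at -2.50 ± 0.13 and the antiproliferative gene Btg2 at -1.82 ± 0.10. These 3 were called lower under all 18 alternatives run for them. Of the common reference genes 8 of 14 were higher and 2 lower, against 36.1% and 28.9% of all tested genes. Among the higher were Gusb (1.18 ± 0.07 SE) and Sdha (0.35 ± 0.05). The counts of reference genes rest on the scaling: 12 were higher and 0 lower when arrays were scaled to their median, and 13 and 0 when the spike-ins were used.

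Other cell types were represented by markers of mixed direction. Of 8 measured hepatocyte markers 3 were higher and 3 lower, with Cyp2e1 at 4.94 ± 0.30 (SE), G6pc at -1.13 ± 0.12 and Asgr1, above background on 0 of 4 siRNA arrays and 4 of 4 NC arrays, at least 4.69-fold lower. Fibroblast markers had 4 higher and 1 lower of 11, endothelial markers 3 and 2 of 5, cholangiocyte markers 1 and 2 of 3 and leukocyte markers 0 and 1 of 2 by limma. The shares of all tested genes given above apply to these counts too. Over probes above background on all arrays, the endothelial counts were 2 higher and 0 lower of 2. The part of the cell type markers in the repair values was not tested.

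Promoters of the repair genes were searched for letters known from genes of the cell cycle, and these motifs were chosen with the values of the genes known. RefSeq promoter sequence (GRCr8, 250 bases before the start) was found for 24 of the 29 genes with a probe, 16 of them called higher. The E2F letters TTTCCCGC, TTTCGCGC, TTTGCCGC and TTTGGCGC were sought on both strands. They occurred in 4 of the 16 promoters of genes called higher and in 0 of the other 8, against 3.51% of 8900 promoters of tested genes and 1.73% of all 33469 promoters in the table. The letters TTTGAA (cell cycle homology region) occurred in 3 of the 16 and 0 of the 8, against 10.3% of promoters of tested genes and 16.2% of all promoters. CCAAT occurred in 8 of the 16 and 1 of the 8, against 36.3% and 34.0%. Over all 24 promoters of listed genes the shares were 16.7% for the E2F letters, 12.5% for TTTGAA and 37.5% for CCAAT. For TTTGAA and CCAAT these are near the shares of tested genes. The 16 and the 8 were split by calls from these same arrays. Of the E2F matches, 0 overlapped either of the other motifs.

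The 4 promoters with E2F letters are shown 5′ to 3′ on the strand of the gene, with the match in capitals, and belong to Atm, Chek1, Fancc and Ung. They lie on GRCr8 at chr8:62828630-62828879 (reverse strand) for Atm, chr8:44629844-44630093 (reverse) for Chek1, chr17:1686839-1687088 (forward) for Fancc and chr12:48154046-48154295 (reverse) for Ung.
Atm promoter: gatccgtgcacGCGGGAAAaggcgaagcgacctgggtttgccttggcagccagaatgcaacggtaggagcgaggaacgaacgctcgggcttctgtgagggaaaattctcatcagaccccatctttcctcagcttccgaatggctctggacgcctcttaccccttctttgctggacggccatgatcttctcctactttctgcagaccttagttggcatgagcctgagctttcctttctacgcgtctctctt
Chek1 promoter: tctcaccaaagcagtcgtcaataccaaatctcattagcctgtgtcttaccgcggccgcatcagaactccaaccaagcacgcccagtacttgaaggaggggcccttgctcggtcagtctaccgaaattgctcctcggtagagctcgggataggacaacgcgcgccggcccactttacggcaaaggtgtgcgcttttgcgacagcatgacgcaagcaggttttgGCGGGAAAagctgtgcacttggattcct
Fancc promoter: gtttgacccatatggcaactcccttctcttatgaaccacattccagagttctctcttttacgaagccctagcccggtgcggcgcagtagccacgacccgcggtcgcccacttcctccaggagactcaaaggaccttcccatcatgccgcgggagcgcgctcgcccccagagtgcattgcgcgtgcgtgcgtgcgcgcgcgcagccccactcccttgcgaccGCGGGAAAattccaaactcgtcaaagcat
Ung promoter: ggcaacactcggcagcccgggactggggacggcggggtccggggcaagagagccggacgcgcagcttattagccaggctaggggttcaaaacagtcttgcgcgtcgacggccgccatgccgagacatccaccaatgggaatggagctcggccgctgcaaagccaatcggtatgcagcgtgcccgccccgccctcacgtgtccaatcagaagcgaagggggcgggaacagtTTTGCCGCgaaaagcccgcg
Matches began 28 bases before the start in Chek1, 29 in Fancc and 20 in Ung, while that of Atm began 239 bases before it. In Atm, Chek1 and Fancc the match read GCGGGAAA, the reverse complement of TTTCCCGC, and in Ung it read TTTGCCGC. Of the 4 genes, Ung and Fancc rose by at least 0.5 on the log2 scale, and Atm and Chek1 by less. The 4 genes with the largest rises, Exo1, Fanca, Rad54l and Fancd2, had none of the E2F letters in this window, and Exo1, Fanca and Rad54l had CCAAT in it. A match is a description of the letters, and factor binding was not measured.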

How the data were processed

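RNA of 8 samples was Cy3-labelled and each sample was put on 1 Agilent rat whole-genome array, per the labels. In the deposited scanner files the processed intensity has had background and spatial trend removed for each array on its own by Agilent Feature Extraction 12.0.3.1, per the file headers; no scaling between arrays is recorded there. A table deposited by the authors gives 86 probes as log2 values, normalized by a method not given in the sources used here. Its columns had medians of 5.53, 5.24, 5.32 and 5.72 for siRNA and 5.34, 5.18, 5.17 and 5.45 for NC arrays and correlated with the log2 scanner values at 0.997 to 1.00, which settled its scale and direction. The submitters' processing notes name limma without saying for what.

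Control spots and spots marked non-uniform or outlying (129 to 174 per array) were left out, and 0 spots were saturated. Log2 intensities minus the array's 75th percentile were averaged over spots of a probe. Probes well above background on at least 3 of 4 arrays of a group were kept (24853). The test was limma's lmFit and eBayes (limma 3.58.1, R 4.3.3), two-sided, adjusted by Benjamini-Hochberg across all kept probes. Each gene took its brightest kept probe and was named through its accession in RefSeq (GRCr8, 18028 probes), or else a symbol that RefSeq lists as current (3168) or older (400). Positions of probes come from the array design (rn4), read here with descending positions as the reverse strand, and exon and UTR annotation was not used here. The fit was tested on simulated data.

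Members, lists and tests were chosen with earlier results of these data known. All listed genes were named. Values per array were given for called genes at 0.5 or more and for Atm, Chek1, Chek2, Brca1 and Brca2, and for Ercc1, Lig4 and Nhej1 after their values were seen. From the further repair lists the 5 highest and 5 lowest called genes were to be named, and from each comparison list up to 3 called genes by adjusted p; some of these genes are not reported here. Alternatives were other scalings, background corrections, probe filters, probe summaries, a replicate block and leaving out each array. Deviations of same-numbered arrays of the 2 groups from their group means correlated at 0.01, 0.03, -0.03 and 0.21. Differently numbered arrays were not taken as a reference, so whether the numbers pair arrays was not settled. The labels state no shared culture, and the main fit used no block.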

Additional observations from a re-analysis of the deposited data

Results flagged for a closer look

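Within each group of 4 arrays, a level was singled out where its gap to the nearest other array, as a share of the group's range on the log2 scale, passed Dixon's 95% critical value. Chance does this in about 1 in 20 groups, and 3 of 56 groups were singled out. Nbn was lowest on NC 4 (4.93, against 5.57 to 5.69 on the other NC arrays). Rad51c was highest on NC 3 (0.286, against 0.141 to 0.158 on the other NC arrays). Xpa was lowest on siRNA 4 (0.797, against 1.18 to 1.28 on the other siRNA arrays). None of these 3 genes was called, and leaving out the array turned the sign of each, to -0.0033 for Nbn, 0.05 for Rad51c and 0.12 for Xpa.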

How the results depend on the processing

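The count of 17 repair genes higher was 15 to 25 under the alternatives other than plain normexp, which gave 5, with 1206 higher and 763 lower of all tested genes. Normexp with dimmer spots (below their local background, 10 of them on NC 1) left out, chosen after seeing the data, gave 16 higher and 1 lower, with a median of 0.17. The 1 lower gene became 0 with median scaling, spike-in scaling and normexp. Of the 104 further genes, 88 were higher with spike-in scaling and 23 with normexp, and 8, 4 and 3 were lower with median scaling, spike-in scaling and normexp. The median of the 28 was 0.66 scaled to the median and 0.89 scaled to spike-ins. Leaving out each array gave 15 to 18 higher and 1 lower of the listed genes, 52 to 54 higher and 17 to 20 lower of the further genes, and medians of 0.33 to 0.40. The replicate block gave 16 higher and 2 lower (Brca2, adjusted p = 0.00799; Xrcc6 was lost, adjusted p = 0.0676) and 54 and 20 of the further genes. Slide could not be fitted as a block, because each slide held 1 group.

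Of the 18 called genes, 13 kept their direction in every alternative and 5 also their call. Signs turned with plain normexp for Atm (-0.19), Brca1 (-0.38), Fancc (-0.19), Xpc (-0.014) and Ercc2 (-0.45; -0.045 without dimmer spots). They turned with quantile normalization for Nbn (-0.059), Mre11a (0.070), Rad50 (0.014), Rad51c (0.014) and Ercc3 (-0.069), with cyclic loess for Nbn (-0.062) and Ercc3 (-0.075), and with the percentile over bright probes for Nbn (-0.041) and Ercc3 (-0.045). With median scaling Mre11a (0.27), Rad50 (0.21), Rad51c (0.12) and Xpa (0.26) turned, and with spike-in scaling Mre11a (0.50), Rad50 (0.45), Rad51c (0.36), Brca2 (0.12), Xpa (0.50) and Ercc1 (0.14). Leaving out each array in turn gave -0.0033 to 0.065 for Nbn, -0.081 to 0.017 for Mre11a, -0.29 to 0.048 for Rad51c, -0.016 to 0.081 for Ercc3 and -0.11 to 0.12 for Xpa. The sign turned without NC 4, NC 1, NC 3, siRNA 2 and siRNA 4, in this order of genes. With the mean over probes Polb turned (-0.062). The cause was not tested. Dim genes, such as Brca1 at a level under 0.1, are limited by signal over background.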
